A study of Mus musculus with 3 samples.

Results

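Beta cells of IRE1α knockout islets were compared with beta cells of floxed control islets, gene by gene. The genes are all 8193 of the authors' beta-cell table, out of 8237 that appear in at least 1 of the tables for beta, alpha (186 genes) and delta cells (231 genes). No gene was chosen for its direction. The rule by which the authors chose the genes of the table is not stated in the sources used here, and the table, which also carries their fold, p and q columns, holds almost no gene whose ratio is near that of the UMI totals. Counts below therefore describe listed genes, and members of a gene list that the table does not hold were not analysed here.

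All mice were NOD/ShiLtJ, a strain that develops autoimmune diabetes, and were 5 weeks old. The knockout group, IRE1αβ-/-, held 2 mice and the control group, IRE1αfl/fl, 1 mouse. Both genotypes had received tamoxifen (10 mg/ml by intraperitoneal injection over 5 days) to switch on Cre recombinase. Islets were hand-picked, kept in culture overnight and dissociated with accutase before capture in 10X Genomics droplets, in which each unique molecular identifier (UMI) marks 1 captured transcript. The driver of the Cre, the exons it removes and the share of beta cells recombined are not stated in the sources used here. The values are mean UMIs per cell over 829 control and 815 knockout cells, and the knockout column pools both mice. No value below has an SD, an n or a test over mice, since the control was a single animal.

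IRE1α is a kinase and RNase in the membrane of the endoplasmic reticulum (ER). When unfolded protein builds up, it splices the mRNA of Xbp1, whose product switches on genes for protein entry into the ER, folding, glycosylation and export, and it can also cleave other mRNAs at the ER membrane. Beta cells depend on this machinery because they make proinsulin in bulk, and a beta cell that loses its mature state lowers its insulin and glucose-sensing genes and takes up genes of progenitors.

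The defining markers fitted the label. Ins1, Ins2, Iapp and Mafa were present in both groups, and Ins1, Ins2 and Iapp together made up 69.9% of the listed UMIs of control cells and 53.9% of those of knockout cells. The targeted gene did not read lower: Ern1 (ENSMUSG00000020715, mm10 chromosome 11, 106394650 to 106487852) had 0.509 and 0.742 UMIs per control and knockout cell, a ratio of 1.46 [1.29 to 1.66]. Reads outside the removed exons check nothing, so the labels are used as given. The brackets hold the exact 95% interval of the ratio of knockout over control, which covers counting error only, and so is narrower than the spread between mice.

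The hormone genes held far fewer UMIs in knockout cells, while most other genes read higher. Ins2, Ins1 and Iapp together went from 22054 to 13362 UMIs per cell, 8692 fewer. The other 8190 genes went from 9498 to 11434, a ratio of 1.2. Outside the hormone genes, all lower genes together had 570.0 fewer UMIs per cell, and all higher genes had 2506 more. As UMIs per cell 3741 genes (45.7%) were at least 1.5-fold higher in the knockout and 202 (2.47%) at least 1.5-fold lower. The ratio of the median gene was 1.45 (log2 0.54), so counts of genes by list are also given relative to the median gene, that is, with each ratio divided by this one. In such pairs of counts the higher genes come first. On that scale 1314 genes (16.0%) were at least 1.5-fold higher and 343 (4.19%) at least 1.5-fold lower, and these are the backgrounds for the counts that follow. "Higher" and "lower" by 1.5-fold name a size, since nothing could be tested.

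**Figure D1:**
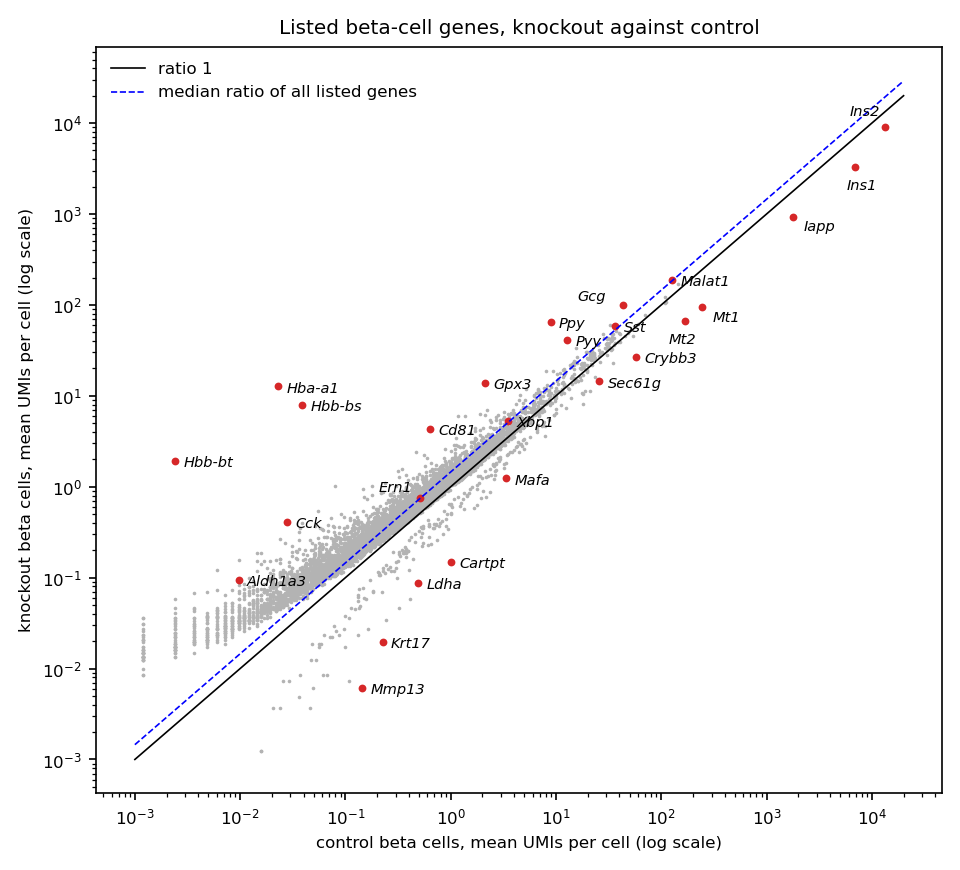
Mean UMIs per cell in control (x axis) and knockout (y axis) beta cells, both on log scales, with 1 point per listed gene that has UMIs in both groups. The solid line is a ratio of 1, the dashed line the median ratio of 1.45, and the named genes in red include Ins1, Ins2 and Iapp below both lines and the globin genes far above them.

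Among the listed genes, the size of the ratio went with the level of the gene. The median ratio was 3.73 for the 477 genes under 0.03 UMIs per cell (mean of both groups), 1.55 for the 2295 genes from 0.1 to 0.3, and 1.14 for the 368 genes from 3 to 10. Under 0.03, 96.0% of genes were at least 1.5-fold higher and 3.98% lower, and from 0.03 to 0.1 these shares were 93.3% and 3.02%. Low genes with a ratio near 1 are thus scarce in the table. Whether the choice of listed genes made this trend was not tested. Genes with at least 1 UMI per cell in both groups, 1414 in number, had a median ratio of 1.18. As UMIs per cell, 12.5% of them were at least 1.5-fold higher and 3.82% lower. Of 1647 protein-coding genes with a mean of at least 1 UMI per cell, 42 were higher and 201 lower relative to the median gene. For lists of abundant genes these shares are the nearer background. A further scale, added after seeing the data, therefore divides each gene by the median ratio of genes of similar level. It rests on listed genes only and has the same limit. On it 757 genes (9.24%) were at least 1.5-fold higher and 300 (3.66%) at least 1.5-fold lower.

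The ratios of the listed genes left a gap. Between 0.75 and 0.80 there was no listed gene, and between 0.80 and 0.85 there was 1, against 10 genes from 0.70 to 0.75 and 12 from 0.85 to 0.90. The ratio of the listed UMI totals, 0.786 (31552 and 24796 UMIs per cell), lay inside this gap. Genes whose ratio was close to that of the totals are thus scarce in the table, and whether the choice of listed genes made the gap was not tested. Of the 413 genes with fewer UMIs per knockout cell, 12, 63 and 108 had ratios from 0.85 to 0.90, 0.90 to 0.95 and 0.95 to 1.

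**Figure D2:**
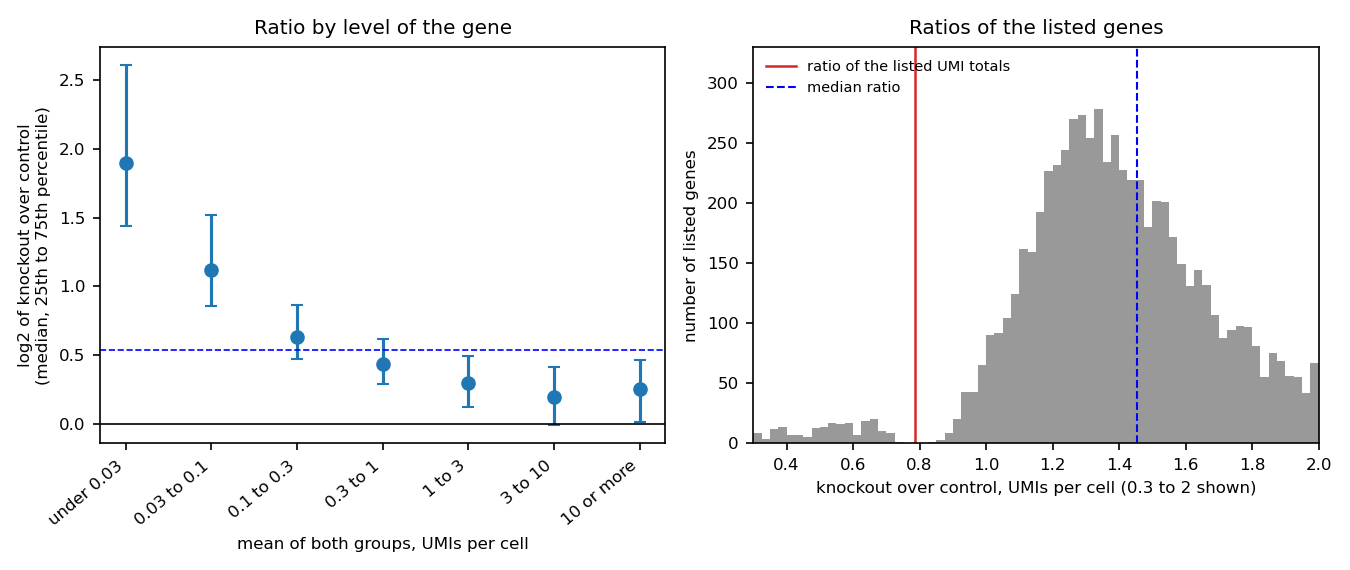
Left, median log2 ratio of knockout over control (bars: 25th to 75th percentile) for listed genes in 7 bands of mean UMIs per cell, with the median of all genes dashed. Right, number of listed genes per ratio (0.3 to 2 shown), with the ratio of the listed UMI totals (0.786) in red inside a gap that holds almost no gene and the median ratio (1.45) dashed.

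The hormones and the defining genes of the mature beta cell were lower in the knockout. Ins1 had 6899.8 and 3281 UMIs per control and knockout cell, a ratio of 0.475 [0.475 to 0.476], and Ins2 had 13373 and 9146, a ratio of 0.684 [0.683 to 0.685]. Ins1 was thus lower by more than Ins2, and the UMIs of Ins2 per UMI of Ins1 went from 1.94 to 2.79. Iapp (ENSMUSG00000041681, mm10 chromosome 6, 142298423 to 142303961), which encodes the co-secreted amylin, had 1781 and 935 (ratio 0.525 [0.523 to 0.526]). Mafa (ENSMUSG00000047591, mm10 chromosome 15, 75745490 to 75748228), a transcription factor that drives insulin genes in mature beta cells, had 3.38 and 1.23 (ratio 0.364 [0.338 to 0.391]), the lowest ratio of the list. Slc2a2, the glucose transporter of mouse beta cells, had 0.271 and 0.119 and Ucn3, a peptide of late maturity, 0.691 and 0.385. Of the 9 listed members of this list of 14, 5 were at least 1.5-fold lower and 1 was higher, and relative to the median gene 6 were lower and 0 higher (median log2 ratio -0.84, or -1.38 relative to the median gene). Neurod1 and Nkx2-2, factors shared with other islet cells, were at 1.12 [1.06 to 1.18] and 1.64 [1.47 to 1.82].

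The other islet transcription factors mostly did not follow Mafa. Of 33 listed, 24 were at least 1.5-fold higher and 2 lower, and relative to the median gene 10 were higher and 2 lower (medians 0.71 and 0.17). St18, a zinc finger factor of endocrine cells, was the other lower one, with 1.98 and 1.24 UMIs per control and knockout cell (ratio 0.626 [0.578 to 0.678]). The high end held factors of endocrine progenitors and of other islet cells. Fev, a factor of endocrine progenitors, had 0.0265 and 0.239 (ratio 9.02 [5.79 to 14.7]), Irx2, an alpha-cell factor, 0.0241 and 0.162 (ratio 6.71 [4.18 to 11.3]), and Etv1 0.0603 and 0.34 (ratio 5.64 [4.16 to 7.78]). These levels were low in both groups, under 0.35 UMIs per cell in each.

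Genes of progenitors and dedifferentiated beta cells were mostly higher, also relative to the median gene. All 24 listed members (of 41) had ratios above 1, but only 413 of all 8193 listed genes had a ratio under 1. Of the 24, 19 were at least 1.5-fold higher, and 15 were so relative to the median gene. Relative to genes of similar level 12 were higher and 1 lower by 1.5-fold. The median log2 ratios on these scales were 1.41, 0.87 and 0.60. Cd81 (ENSMUSG00000037706, mm10 chromosome 7, 143052739 to 143067934), a tetraspanin of immature beta cells, had 0.63 and 4.31 UMIs per control and knockout cell (ratio 6.84 [6.24 to 7.51]), and Cd24a, a surface glycoprotein, 0.347 and 1.57 (ratio 4.51 [3.97 to 5.14]). The gut hormone genes Cck and Gast had 0.0277 and 0.413 and 0.0362 and 0.258, with ratios of 14.9 [9.77 to 23.8] and 7.12 [4.84 to 10.8]. Serpinb1a, a protease inhibitor, had 0.0543 and 0.536 (ratio 9.88 [7.26 to 13.7]). Keratins Krt8 and Krt18, which form 1 filament, were at 2.31 [2.19 to 2.43] and 1.39 [1.33 to 1.46]. Foxo1, a factor that guards beta-cell identity, had 0.28 and 0.361, a ratio of 1.29 [1.08 to 1.54] that lies under the median gene.

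Genes that mature beta cells keep silent were mostly higher as UMIs per cell, but not against genes of their own level. Of 13 listed, 11 were at least 1.5-fold higher and 1 lower, and 8 and 1 relative to the median gene (medians 1.25 and 0.71), while relative to genes of similar level 3 were higher and 2 lower (median -0.05). Cd302 (0.0181 and 0.128 UMIs per control and knockout cell) and Igfbp4 (0.0651 and 0.281), a binding protein of insulin-like growth factors, led them. Ldha, the lactate dehydrogenase subunit that beta cells normally repress, was the lower one, with 0.49 and 0.0883.

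Most listed genes of neuropeptides and islet hormones were higher, and 3 were lower. Cartpt had 1.01 and 0.15 UMIs per control and knockout cell (ratio 0.148 [0.121 to 0.179]), Pomc, the precursor of melanocortins and endorphin, 1.43 and 0.799 (ratio 0.56 [0.508 to 0.616]), and with Ucn3 these were the lower members. Ppy, Pyy and Tac1 were among the higher ones with 8.88 and 65.3, 12.8 and 41.6 and 0.103 and 0.367. Over the list 13 of 20 were at least 1.5-fold higher and 3 lower (10 and 3 relative to the median).

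**Figure D3:**
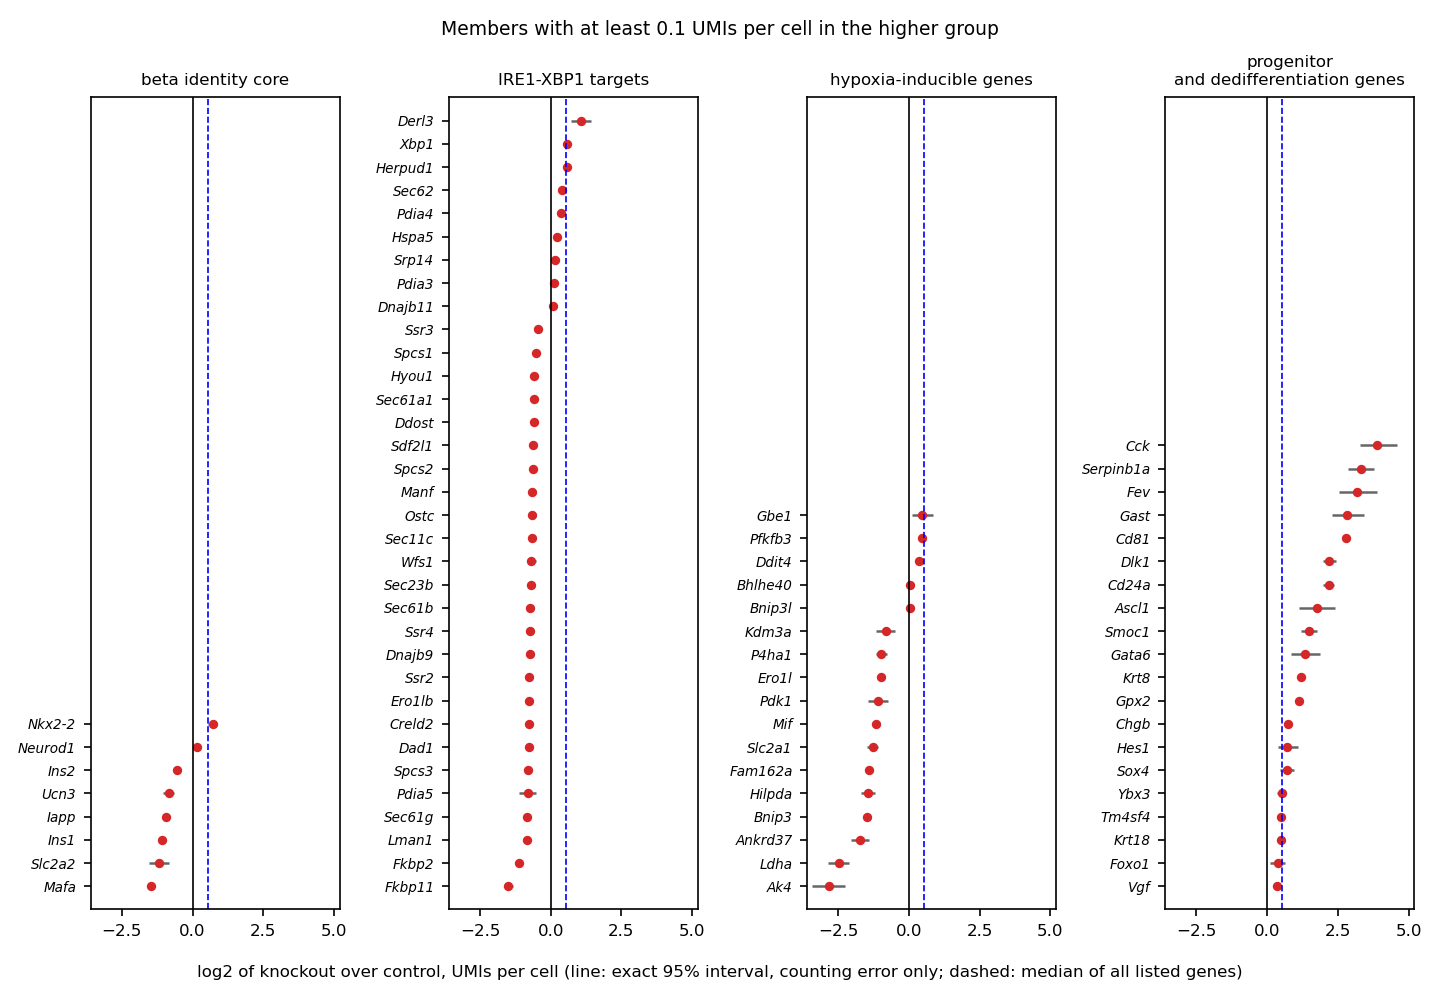
Log2 ratio of knockout over control with its exact 95% interval (counting error only) for listed members with at least 0.1 UMIs per cell in the higher group, in 4 gene lists. Solid lines mark 0 and dashed lines the median of all listed genes (0.54). The IRE1-XBP1 and hypoxia lists lie mostly left of 0. The progenitor list lies wholly to the right of 0, as most listed genes do.

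Listed genes of prohormone processing and granule cargo other than the hormones divided, with some abundant genes near a ratio of 1 and others well above it. Of 18 listed genes 6 were at least 1.5-fold higher and 1 lower, and relative to the median gene 0 were higher and 6 lower (medians 0.36 and -0.18). Relative to genes of similar level 0 were higher and 1 lower (median -0.03). As UMIs per cell and on this scale the lower one was Ero1lb (ratio 0.59), an oxidase of the ER that is also given below with the folding enzymes. The prohormone convertase gene Pcsk2 had 15.6 and 15.1 UMIs per control and knockout cell (ratio 0.968 [0.944 to 0.992]) and the autoantigen Ptprn of the granule membrane 9.8 and 9.11 (ratio 0.93 [0.901 to 0.96]). Granins, acidic proteins that help form granules, divided. Pcsk1n, Scg5, Scg3 and Resp18 had ratios of 0.947, 0.949, 0.968 and 0.989, whereas Scg2 went from 19.2 to 30.05 (ratio 1.57 [1.54 to 1.6]) and Chgb from 15.98 to 26.7 (ratio 1.67 [1.64 to 1.71]). Cpe, the carboxypeptidase that trims prohormones, had 21.4 and 27.7 (ratio 1.3 [1.27 to 1.32]).

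The machinery that releases granules had no member lower by 1.5-fold, which is near the share of 2.47% over all listed genes. Of 33 genes for SNARE proteins and calcium sensors of exocytosis, 12 were at least 1.5-fold higher and 0 lower, and 6 and 0 relative to the median gene (median 0.42, or -0.12). Vamp2 and Vamp8, SNAREs of granule fusion, had 1.99 and 1.95 and 3.68 and 3.62 UMIs per control and knockout cell, and Cplx2, a complexin that clamps fusion, 0.884 and 1.74 (ratio 1.96 [1.8 to 2.15]). Of 49 ion channel and pump genes of excitability, 25 were higher and 1 lower (12 and 1 relative to the median). The lower one was Trpm5, a calcium-activated cation channel of beta cells, with 0.778 and 0.373 (ratio 0.479 [0.417 to 0.55]). Kcnj11, the pore of the ATP-sensitive potassium channel, had 0.603 and 0.607, a ratio of 1.01 [0.888 to 1.14], which is below the median gene.

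Among receptors, 10 of 16 were at least 1.5-fold higher and 1 lower (4 and 1 relative to the median). Gipr, the receptor of the incretin GIP, was that lower one, with 0.221 and 0.0687 UMIs per control and knockout cell (ratio 0.311 [0.226 to 0.422]), and Ffar4, a fatty acid receptor of delta cells, was at the high end with 0.0603 and 0.209. Relative to genes of similar level 2 receptors were higher and 1 lower. In cAMP and G protein signalling, 22 of 45 genes were higher and 0 lower (10 and 2 relative to the median), from the G protein subunit Gng4 (2.91 and 2.61, ratio 0.895 [0.844 to 0.95]) and the kinase subunit Prkar1a (9.21 and 8.39, ratio 0.912 [0.882 to 0.942]) to Rgs16, which ends G protein signals (0.473 and 2.43, ratio 5.14 [4.61 to 5.74]).

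The channel of the ER, its TRAP partners and signal peptidase were mostly lower, although 14 of the 24 listed genes of protein entry had ratios above 1. The Sec61 channel carries new proteins into the ER, and of its 4 listed subunits 3 were at least 1.5-fold lower. Sec61g had 25.7 and 14.4 UMIs per control and knockout cell (ratio 0.56 [0.547 to 0.573]), Sec61b 17.8 and 10.7 (ratio 0.604 [0.589 to 0.621]) and Sec61a1 3.43 and 2.26 (ratio 0.659 [0.621 to 0.699]). The paralog of the last, Sec61a2, was at 1.22 [1.04 to 1.43]. The TRAP subunits beside the channel, Ssr2, Ssr3 and Ssr4, were at 0.591, 0.723 and 0.598. Signal peptidase, which cuts the leader off, had Spcs1, Spcs2, Spcs3 and Sec11c at 0.7001, 0.646, 0.574 and 0.632. Over this list of 24 genes 4 were higher and 8 lower by 1.5-fold (2 and 10 relative to the median), and 0 and 10 relative to genes of similar level. The 7 subunits of the ER membrane complex, which inserts membrane proteins, went the other way with ratios from 1.13 to 1.52, and Sec62 was at 1.31 [1.23 to 1.4].

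Most listed genes of glycan transfer were lower, while the listed genes of glycan assembly on the lipid carrier (5 of 16) were not. The oligosaccharyltransferase puts the preformed glycan onto the growing chain, and 5 of its 8 listed genes were at least 1.5-fold lower. Dad1 had 12.4 and 7.27 UMIs per control and knockout cell (ratio 0.585 [0.566 to 0.604]), Magt1 1.79 and 1.04 (ratio 0.579 [0.532 to 0.631]) and Krtcap2, just short of that fold, 13.9 and 9.35 (ratio 0.673 [0.654 to 0.693]). Tusc3 and Stt3b were at 1.14 [1.05 to 1.24] and 1.24 [1.1 to 1.39]. The 5 listed genes that build the glycan on its lipid carrier had ratios from 1.13 to 1.63. Gmppb, which makes the mannose donor, had 0.929 and 0.498 (ratio 0.536 [0.474 to 0.606]), and the Golgi enzymes Mgat5 and Man2a1 were at 2.4 [1.97 to 2.94] and 2.51 [1.96 to 3.24]. Over the list of 28, 8 were higher and 7 lower (3 and 9 relative to the median).

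Folding enzymes were lower by 1.5-fold more often than higher, and direction differed within the prolyl isomerases and within the disulfide isomerases. Of the 4 listed prolyl isomerases of the ER, 3 were lower, with Fkbp11 (ENSMUSG00000003355, mm10 chromosome 15, 98724366 to 98728198) at 1.66 and 0.588 UMIs per control and knockout cell (ratio 0.355 [0.319 to 0.394]), Fkbp2 at 7.85 and 3.64 (ratio 0.463 [0.443 to 0.484]) and Ppib at 3.36 and 1.84 (ratio 0.547 [0.513 to 0.583]). The other one, Fkbp9, was at 1.17 [1.08 to 1.26]. The oxidases Ero1l and Ero1lb, which supply disulfide bonds and of which the second is prominent in beta cells, had 2.66 and 1.35 and 7.81 and 4.61 (ratios 0.506 [0.47 to 0.544] and 0.59 [0.567 to 0.615]). Disulfide isomerases spread from Pdia5 (0.566 [0.46 to 0.695]) and P4hb (0.602 [0.577 to 0.629]) to Pdia4 (1.27 [1.18 to 1.38]) and Txndc12 (1.5 [1.35 to 1.68]). The large chaperones Hspa5 (BiP) and Hsp90b1 (GRP94) had 9.68 and 11.2 and 6.51 and 9.43, with ratios of 1.16 [1.13 to 1.2] and 1.45 [1.4 to 1.5], and relative to the median gene of 0.798 and 0.996. Of 32 listed chaperones and disulfide enzymes 12 were at least 1.5-fold lower and 1 higher, and 17 were lower relative to the median gene (medians -0.08 and -0.62). ER-associated degradation, which returns misfolded proteins to the cytosol, did not share this direction as UMIs per cell. In it 0 of the 31 listed genes had a ratio under 1, and 6 (19.4%) were at least 1.5-fold higher, with Svip at 2.19 [2.001 to 2.39] and Derl3 at 2.09 [1.65 to 2.68]. Over all 8193 genes 413 had a ratio under 1 and 45.7% were at least 1.5-fold higher. The median log2 ratio of this list was 0.36, -0.18 relative to the median gene and -0.07 relative to genes of similar level.

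Known IRE1-XBP1 targets, a list that overlaps those above, had 22 of 34 listed members at least 1.5-fold lower and 1 higher, and relative to the median gene 25 lower and 0 higher (medians -0.65 and -1.19). Together they went from 189 to 132 UMIs per cell. Xbp1 itself had 3.51 and 5.25 (ratio 1.5 [1.43 to 1.57]), and these values do not separate its spliced from its unspliced form. Dnajb9, a BiP co-chaperone, was at 0.595 [0.565 to 0.627] and Manf, a secreted ER factor, went from 9.61 to 6.15 (ratio 0.64 [0.617 to 0.663]). Herpud1, a degradation factor, was at 1.48 [1.39 to 1.57].

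Targets with the same promoter element differed in direction. The ER stress response element was searched as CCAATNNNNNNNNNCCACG on both strands, in the 250 bases before each RefSeq gene start (GRCm38.p6). It was found in 3 of the 25 listed IRE1-XBP1 targets that had a window (12.0%). The share was 0.110% of the 6340 table genes with a window and 0.130% of 27025 genes in all. The list was drawn from known targets, so a high share is partly built in, and it rests on 3 genes. Those 3 genes are shown, with the match in capitals, because their directions differed: Creld2 was at 0.59 [0.546 to 0.638], Hspa5 at 1.16 [1.13 to 1.2] and Derl3 at 2.09 [1.65 to 2.68].
Creld2 promoter (chr15:88819396-88819645, plus strand): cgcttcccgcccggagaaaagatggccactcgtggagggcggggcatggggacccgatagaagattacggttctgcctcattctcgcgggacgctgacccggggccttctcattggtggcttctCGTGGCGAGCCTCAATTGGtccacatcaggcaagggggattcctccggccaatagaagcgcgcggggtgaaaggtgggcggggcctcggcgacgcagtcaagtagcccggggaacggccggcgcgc
Derl3 promoter (chr10:75893148-75893397, plus strand): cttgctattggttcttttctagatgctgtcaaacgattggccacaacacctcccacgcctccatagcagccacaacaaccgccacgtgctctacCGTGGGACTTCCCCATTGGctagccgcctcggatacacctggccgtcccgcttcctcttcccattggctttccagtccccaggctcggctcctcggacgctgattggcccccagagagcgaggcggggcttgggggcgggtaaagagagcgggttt
Hspa5 promoter (chr2:34771840-34772089, plus strand): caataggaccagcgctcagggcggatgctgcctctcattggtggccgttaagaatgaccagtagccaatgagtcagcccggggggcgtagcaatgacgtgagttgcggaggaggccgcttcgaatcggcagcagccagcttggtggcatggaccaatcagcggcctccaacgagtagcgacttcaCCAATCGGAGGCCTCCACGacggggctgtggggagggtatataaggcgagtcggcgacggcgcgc
The match read forward in Hspa5 and on the reverse strand in Creld2 and Derl3. It describes letters only, and other spacings of the element or elements outside these windows were not searched.

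Of the listed genes of export from the ER, single subunits were lower and others were not. Listed were 4 of 9 COPI and 4 of 13 COPII genes, with summed ratios of 0.719 and 0.836. Nothing can be said here of whole coats. In the COPI coat Cope had 4.96 and 2.61 UMIs per control and knockout cell (ratio 0.526 [0.499 to 0.554]) while Arcn1, Copz1 and Copg2 were at 0.961, 1.08 and 1.4. In COPII, Sec23b was at 0.622 [0.569 to 0.679] and its paralog Sec23a at 1.26 [1.01 to 1.57]. Tmed9, a cargo receptor, was at 0.652 [0.619 to 0.686] against 0.924 [0.885 to 0.964] for Tmed3, and Lman1, which carries glycoproteins out of the ER, at 0.557 [0.517 to 0.6002]. Bet1, a SNARE of this step, was at 0.611 [0.558 to 0.669]. Over 51 coat and Golgi genes 4 were higher and 4 lower by 1.5-fold (0 and 10 relative to the median), and 0 and 4 relative to genes of similar level.

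**Figure D4:**
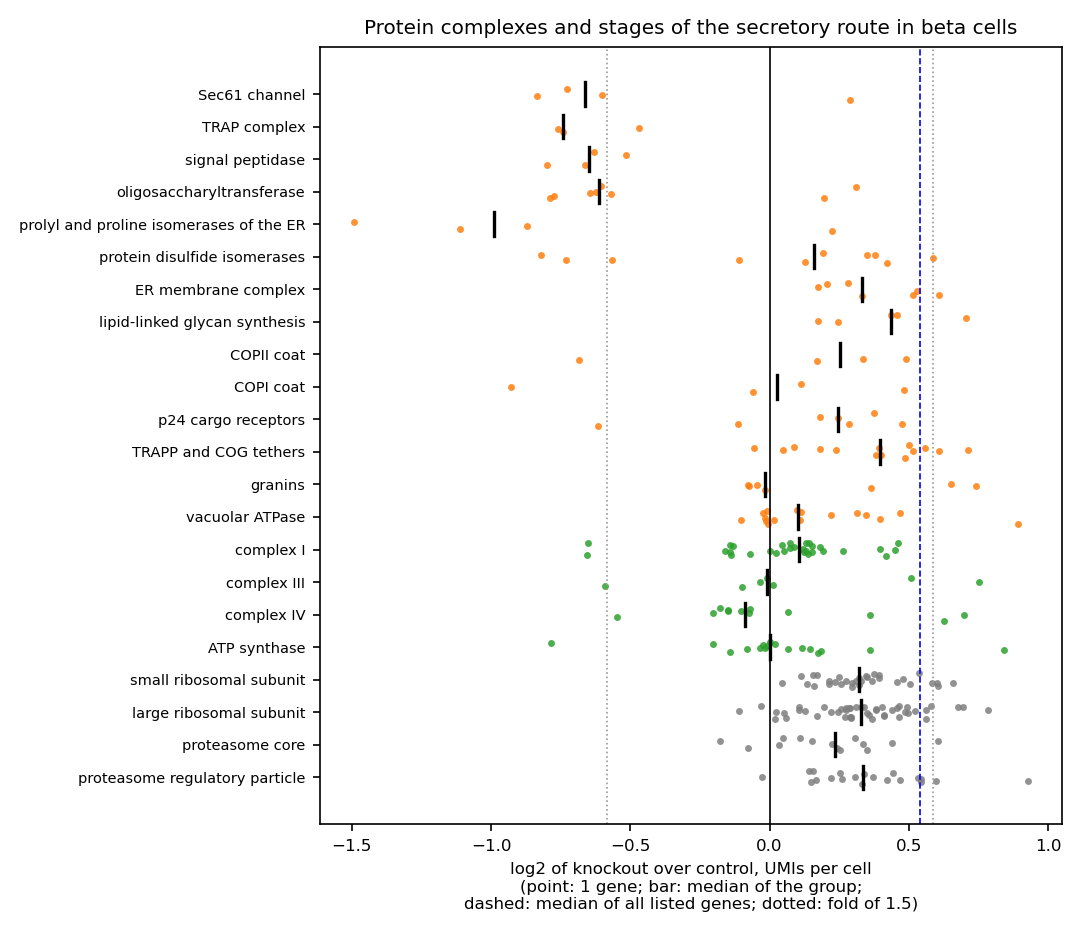
Log2 ratio of knockout over control for each listed gene (points) of protein complexes and stages of the secretory route (orange), respiration (green) and ribosome and proteasome (grey), with the median of each group as a black bar. The solid line marks 0, the dashed line the median of all listed genes and the dotted lines a fold of 1.5; Sec61, TRAP, signal peptidase, oligosaccharyltransferase and ER prolyl isomerases have medians at or beyond the lower dotted line.

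Protein breakdown did not share the direction of the ER. Of 43 proteasome genes 3 were at least 1.5-fold higher and 0 lower, and relative to the median gene 0 and 4 (medians 0.26 and -0.28). Relative to genes of similar level 0 were higher and 0 lower. The core subunit Psmb6 was lowest, at 0.884 [0.836 to 0.934], and the immunoproteasome subunit Psmb10 was at 0.947 [0.892 to 1.01]. Of 233 ubiquitin genes 89 were higher and 4 lower (15 and 4 relative to the median), near the background of 45.7% and 2.47%. Uchl1, a neuroendocrine deubiquitinase, had 0.151 and 0.767 UMIs per control and knockout cell (ratio 5.09 [4.19 to 6.21]).

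Autophagy and lysosome genes were mostly within 1.5-fold. In autophagy 15 of 41 were higher and 1 lower (2 and 2 relative to the median), the latter being Bnip3, a mitophagy receptor, against Pink1, a kinase that marks damaged mitochondria, with 0.263 and 0.609 (ratio 2.31 [1.97 to 2.73]). Sqstm1, the autophagy cargo adaptor, had 11.5 and 11.8, a ratio of 1.03 [0.999 to 1.06]. Of 62 lysosome and proton pump genes 14 were higher and 0 lower (2 and 3 relative to the median). The tetraspanin Cd63 of late endosomes and granules went from 23.5 to 16.2 UMIs per cell (ratio 0.692 [0.676 to 0.707]) and the protease Ctsz from 1.09 to 2.6 (ratio 2.39 [2.21 to 2.59]). Endosomal sorting had 45 of 139 higher and 1 lower (12 and 6 relative to the median), the lower one being Vps8 at 0.546 [0.448 to 0.663].

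Of 45 cytosolic chaperone genes 14 were at least 1.5-fold higher and 2 lower (3 and 2 relative to the median). Hspa1a and Hspa1b, the stress-induced genes of the HSP70 family, had 1.24 and 0.659 and 0.357 and 0.188 UMIs per control and knockout cell (ratios 0.529 [0.476 to 0.588] and 0.526 [0.43 to 0.641]), and the near-identical copies share reads. Others of that family had ratios above 1, among them Hspa8 at 1.52 [1.47 to 1.57] and Hspa4 at 1.08 [0.979 to 1.2]. The small heat shock genes Hspb1 and Hspb8 had 0.117 and 0.38 and 0.194 and 0.572 (ratios 3.25 [2.58 to 4.13] and 2.94 [2.46 to 3.54]). The 7 listed subunits of the ring chaperonin CCT, which folds actin and tubulin, lay from 1.04 to 1.66.

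Glycolysis was lower along most of the pathway. Of 19 listed genes 11 were at least 1.5-fold lower and 3 higher, and relative to the median gene 12 and 1 (medians -0.63 and -1.17). The summed level went from 48.5 to 31.2 UMIs per cell. In the order of the pathway, the glucose carrier Slc2a1 was at 0.41 [0.358 to 0.469], Gpi1 at 0.973 [0.907 to 1.04], phosphofructokinase Pfkl at 0.422 [0.377 to 0.47], Tpi1 at 0.548 [0.518 to 0.579], Gapdh at 0.543 [0.53 to 0.557], Pgk1 at 0.492 [0.46 to 0.526], Pgam1 at 0.657 [0.621 to 0.696], Eno1 at 0.647 [0.604 to 0.692] and Pkm at 0.926 [0.887 to 0.966]. Below pyruvate, Ldha was at 0.18 [0.138 to 0.232] and the lactate exporter Slc16a3 at 0.177 [0.103 to 0.29]. Isoforms of the same steps went the other way, with the muscle phosphofructokinase Pfkm at 1.63 [1.2 to 2.23] and Ldhb at 2.46 [1.22 to 5.29], the latter under 0.04 UMIs per cell. Gapdh had 20.96 and 11.4 UMIs per control and knockout cell and Pgk1 3.24 and 1.6.

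Hypoxia-inducible genes, several of which are glycolytic, were the lowest list by median. Of 17 listed, 12 were at least 1.5-fold lower and 0 higher, with the same counts relative to the median gene (median -1.09, -1.63 relative to the median gene and -1.46 relative to genes of similar level). Mif, a cytokine gene that hypoxia induces, had 18.1 and 8.06 UMIs per control and knockout cell (ratio 0.446 [0.433 to 0.459]). Bnip3 (ENSMUSG00000078566, mm10 chromosome 7, 138890836 to 138909519) had 2.17 and 0.778 (ratio 0.359 [0.327 to 0.393]), the mitochondrial Fam162a 2.35 and 0.886 (ratio 0.376 [0.345 to 0.41]) and Hilpda of lipid droplets 0.65 and 0.237 (ratio 0.364 [0.307 to 0.43]). The adenylate kinase Ak4 had 0.242 and 0.0344, the lowest ratio at 0.142 [0.0918 to 0.211]. Pdk1, which closes the entry of pyruvate into mitochondria, was at 0.47 [0.363 to 0.605]. Bnip3l, Bhlhe40, Ddit4, Pfkfb3 and Gbe1 lay from 1.02 to 1.39, and the cause of the difference within the list was not tested.

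Their promoters often held the core letters of the hypoxia response element. ACGTG, on either strand in the 250 bases before the gene start, was in 10 of the 14 hypoxia-inducible genes with a window (71.4%) and 9 of 18 glycolysis genes. It was in 25.3% of the table genes with a window, in 34.1% of the 258 such genes that were 1.5-fold lower relative to the median gene, and in 18.5% of all genes. The lists were drawn from known targets of the hypoxia-inducible factors, so a high share is part of what defines them. The promoters of 3 lower genes are shown, with every match in capitals. The run CACGTG holds the letters on both strands and counts as 2 matches.
Bnip3 promoter (chr7:138909507-138909756, minus strand): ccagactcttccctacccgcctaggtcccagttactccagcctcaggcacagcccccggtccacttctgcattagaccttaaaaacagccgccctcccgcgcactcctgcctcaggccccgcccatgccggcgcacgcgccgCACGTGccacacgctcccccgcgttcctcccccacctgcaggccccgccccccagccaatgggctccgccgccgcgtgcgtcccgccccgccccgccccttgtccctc
Ldha promoter (chr7:46845554-46845803, plus strand): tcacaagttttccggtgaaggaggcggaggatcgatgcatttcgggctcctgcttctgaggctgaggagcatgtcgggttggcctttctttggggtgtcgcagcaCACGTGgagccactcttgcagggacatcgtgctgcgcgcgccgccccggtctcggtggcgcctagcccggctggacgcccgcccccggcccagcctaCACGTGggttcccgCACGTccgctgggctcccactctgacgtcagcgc
Pgk1 promoter (chrX:106186850-106187099, plus strand): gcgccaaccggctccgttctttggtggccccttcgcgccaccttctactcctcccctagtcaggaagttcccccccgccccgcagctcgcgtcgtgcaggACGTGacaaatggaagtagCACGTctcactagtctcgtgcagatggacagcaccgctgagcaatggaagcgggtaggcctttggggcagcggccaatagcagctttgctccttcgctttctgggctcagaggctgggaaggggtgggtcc
Ldha, with a ratio of 0.18, held 5 matches in this window, and Bnip3 (0.359) and Pgk1 (0.492) held 2 each.

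Mitochondrial respiration was close to its control level, which is low against the median gene. Of 75 nuclear genes of oxidative phosphorylation 6 were at least 1.5-fold higher and 4 lower as UMIs per cell, and 23 were lower and 1 higher relative to the median gene. Relative to genes of similar level 5 were lower and 0 higher. Atp5g1, a ring subunit of ATP synthase, went from 18.05 to 10.5 (ratio 0.581 [0.565 to 0.596]) and Uqcrq of complex III from 34.5 to 22.9 (ratio 0.664 [0.652 to 0.677]). Single subunits of each complex stood apart in this way, with Ndufv3 of complex I at 0.635 and Cox5a of complex IV at 0.684, while the medians of complexes I, III, IV and ATP synthase were 1.07, 0.994, 0.94 and 0.9998. In complex IV 8 of 12 subunits had a ratio under 1.

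The 11 listed genes of the mitochondrial genome summed to 542 UMIs in a control and 538 in a knockout cell. None reached 1.5-fold as UMIs per cell, against 45.7% and 2.47% of all genes. Among genes with at least 1 UMI per cell in both groups these shares were 12.5% and 3.82%. Of the 11 genes, 4 were lower relative to the median gene and 0 relative to genes of similar level. They ran from mt-Nd1 at 0.848 [0.837 to 0.86] to mt-Nd4l at 1.25 [1.12 to 1.39]. Genes of the mitochondrial ribosome (66) and of protein import and membrane dynamics (45) had medians of 0.34 and 0.31, with 0 and 0 at least 1.5-fold lower (2 and 2 relative to the median). In the citric acid cycle, Fh1, fumarate hydratase, had 0.609 and 0.227 UMIs per control and knockout cell (ratio 0.373 [0.313 to 0.442]) and Suclg2 0.11 and 0.265 (ratio 2.41 [1.88 to 3.12]), while 6 of 34 genes were higher and 2 lower (2 and 4 relative to the median).

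Lipid genes had no lower member by 1.5-fold, which is near the share of 2.47% over all listed genes. In cholesterol synthesis 16 of 27 were higher and 6 were so relative to the median gene and 6 relative to genes of similar level. Hmgcs1 and Idi1, early enzymes of the pathway, had 0.414 and 1.07 and 0.172 and 0.479 UMIs per control and knockout cell (ratios 2.6 [2.29 to 2.95] and 2.77 [2.28 to 3.38]), and Insig1, which the same sterol response controls, 0.48 and 1.06 (ratio 2.21 [1.96 to 2.49]). Sqle and Cyp51, also of this pathway, were at 1.06 [0.974 to 1.16] and 1.16 [1.05 to 1.28], below the median gene. In fatty acid synthesis and storage 11 of 22 were higher (4 relative to the median), from Tecr at 1.05 [0.963 to 1.15] to Thrsp at 3.98 [2.5 to 6.6], Acly was at 1.14 [1.1 to 1.17] and Fasn was at 1.28 [1.09 to 1.51]. In fatty acid oxidation and peroxisomes 21 of 36 were higher but 2 relative to the median gene. Lpl, lipoprotein lipase, stood outside these lists with 2.01 and 0.903 (ratio 0.45 [0.412 to 0.491]).

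Supply of serine, one-carbon units and polyamines held lower members. Psat1 and Psph, of serine synthesis, had 0.719 and 0.384 and 1.44 and 0.804 UMIs per control and knockout cell (ratios 0.534 [0.464 to 0.614] and 0.558 [0.507 to 0.614]), and Aldh1l2, a mitochondrial folate enzyme, 0.618 and 0.28 (ratio 0.453 [0.386 to 0.53]). Odc1 and Srm of polyamine synthesis were at 0.649 [0.626 to 0.672] and 0.584 [0.522 to 0.654]. Over 31 genes 9 were higher and 6 lower (3 and 9 relative to the median), and 7 were lower relative to genes of similar level. The list of tRNA synthetases, which load amino acids for translation, held 8 listed genes. It includes Aimp1 and Aimp2, scaffold genes of the synthetase complex that are not synthetases. Over the 8 genes, 0 were higher and 1 lower (0 and 3 relative to the median). The lower one was Aimp2 at 0.595 [0.485 to 0.728], while Wars was at 0.709 [0.659 to 0.764] and Qars at 1.47 [1.26 to 1.72].

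The metallothioneins, small metal-binding proteins, had the largest downward differences in UMIs per cell outside the hormones. Mt1 had 244 and 93.9 UMIs per control and knockout cell and Mt2 169 and 67.03 (ratios 0.385 [0.382 to 0.389] and 0.396 [0.392 to 0.399]). Of 55 antioxidant and redox genes these were the 2 lower ones, and 20 were at least 1.5-fold higher (5 and 3 relative to the median). Gpx3 (ENSMUSG00000018339, mm10 chromosome 11, 54902453 to 54910377), a secreted glutathione peroxidase, went from 2.13 to 13.9 (ratio 6.52 [6.2 to 6.85]), and Txnip, which binds thioredoxin and is induced by glucose, from 0.376 to 1.34 (ratio 3.55 [3.13 to 4.04]). Relative to genes of similar level 8 were higher and 2 lower. Crybb3, a crystallin gene, went from 57.5 to 26.6 (ratio 0.463 [0.455 to 0.47]).

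Ribosomal protein genes had more UMIs per knockout cell but lay mostly under the median gene. Of 81, 79 had ratios above 1 and 6 reached 1.5-fold (0 higher and 1 lower relative to the median), and their sum went from 1968 to 2426 UMIs per cell. The median log2 ratio was 0.32, -0.22 relative to the median gene and 0.07 relative to genes of similar level. Rpl3, at 1.72 [1.68 to 1.77], and Rpl12, at 0.926 [0.906 to 0.947], were the ends. Of 61 translation factors 14 were higher and 1 lower (1 and 1 relative to the median). Eef1a1, the main elongation factor, had 28.04 and 48.1 UMIs per control and knockout cell (ratio 1.72 [1.69 to 1.74]), and its neuronal and muscle isoform Eef1a2 0.0724 and 0.448 (ratio 6.19 [4.7 to 8.27]). The 12 listed subunits of the initiation factor eIF3 split into Eif3e, Eif3f, Eif3h, Eif3l and Eif3m, with ratios from 1.63 to 1.73, and 7 subunits from 1.01 to 1.36.

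Few genes of the nucleus stood apart from genes of their own level. Of 116 splicing genes 9 were at least 1.5-fold higher and 0 lower (4 and 5 relative to the median), with the neuronal splicing factor Celf4 at 2.28 [2.05 to 2.55] and the cold-induced Rbm3 at 0.869 [0.833 to 0.906]. Of 169 zinc finger protein genes 102 were higher and 1 lower (22 and 1 relative to the median), but 9 were higher and 4 lower relative to genes of similar level (medians 0.66 and -0.05). Zfp36, which marks mRNAs for decay and is an immediate early gene, had the highest ratio of those with at least 0.1 UMIs per cell in either group, 3.47 [3.14 to 3.85]. Histone-modifying enzymes had 35 of 85 higher and 1 lower (4 and 1 relative to the median), the latter being Kdm3a, a demethylase that hypoxia induces. Chromatin remodellers had 28 of 49 higher and 0 lower (4 and 0 relative to the median), RNA polymerase II and Mediator 18 of 74 and 0 (1 and 2 relative to the median), and nuclear pore and transport genes 11 of 35 and 0 (1 and 0 relative to the median). Malat1, an abundant RNA retained in the nucleus, had 126 and 188 UMIs per control and knockout cell (ratio 1.49 [1.48 to 1.5]), 1.02 times the median gene.

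Genes of the p53 response and immediate early genes were mostly higher. Of 42 p53 targets and apoptosis genes 31 were at least 1.5-fold higher and 0 lower, with 14 higher relative to the median gene and 17 relative to genes of similar level (medians 0.91, 0.37 and 0.32). Cdkn1a, the p21 cell cycle inhibitor, had 2.39 and 5.2 UMIs per control and knockout cell (ratio 2.17 [2.06 to 2.29]), Phlda3 0.146 and 0.953 (ratio 6.53 [5.39 to 7.98]) and the BH3 death factor Bik 0.0663 and 0.283 (ratio 4.27 [3.17 to 5.84]). Immediate early genes, which also respond to dissociation, had 31 of 42 higher and 0 lower (17 and 0 relative to the median), and 17 were higher relative to genes of similar level. Jun had 2.14 and 6.09 (ratio 2.85 [2.7 to 3.01]), Egr1 1.12 and 2.89 (ratio 2.59 [2.4 to 2.8]) and Atf3 0.323 and 1.27 (ratio 3.94 [3.44 to 4.53]), against Gadd45a at 1.12 [0.999 to 1.25]. The part of dissociation in these values was not tested.

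The PERK-ATF4-CHOP branch, which lowers translation under ER stress, was divided. Of 19 listed genes 5 were higher and 1 lower by 1.5-fold (3 and 4 relative to the median). Atf4 and Ddit3 (CHOP) had 6.31 and 6.5 and 2.67 and 3.35 UMIs per control and knockout cell, ratios of 1.03 [0.992 to 1.07] and 1.26 [1.19 to 1.33], both below the median gene. Nupr1 had 4.12 and 8.19 (ratio 1.99 [1.91 to 2.07]), Gdf15, a stress hormone, 0.122 and 0.523 (ratio 4.29 [3.45 to 5.38]) and Ppp1r15a, which restores translation, 2.26 and 3.81 (ratio 1.68 [1.59 to 1.79]).

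Antigen presentation and interferon genes were divided too. B2m, the light chain shared by MHC class I molecules, had 9.91 and 6.47 UMIs per control and knockout cell (ratio 0.653 [0.63 to 0.676]), while the 7 listed heavy chain genes, close copies that may share reads, were at 1.13 to 2.6. H2-D1 had 7.2 and 8.24 (ratio 1.14 [1.1 to 1.18]). Interferon-induced genes held the lower members, with Isg15 at 1.79 and 0.634 (ratio 0.354 [0.32 to 0.391]), Mx1 at 0.135 and 0.0466 (ratio 0.345 [0.232 to 0.503]), Irf7 at 1.31 and 0.724 (ratio 0.551 [0.498 to 0.61]) and Bst2 at 1.5 and 0.848 (ratio 0.565 [0.514 to 0.62]). Irf1 and the interferon gamma receptor chain Ifngr2 were at 2.36 [2.13 to 2.61] and 2.09 [1.9 to 2.29]. In all, 9 of 45 were higher and 6 lower (3 and 9 relative to the median). The chemokine Cxcl1, which attracts neutrophils, went from 15.5 to 33.7 UMIs per cell (ratio 2.17 [2.12 to 2.22]). Of 12 autoantigens of type 1 diabetes 3 were higher and 3 lower (0 and 6 relative to the median), the lower ones being Ins1, Iapp and the disulfide isomerase P4hb, and Ins2 was at 0.684.

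Growth and developmental signals had few lower members, as did the table as a whole (2.47%). In TGF-beta, BMP, Wnt, Notch and Hippo pathways 28 of 50 were higher and 1 lower (12 and 1 relative to the median). The Notch ligand Dll1 had 0.441 and 0.161 UMIs per control and knockout cell (ratio 0.364 [0.296 to 0.446]) and the atypical ligand Dlk1 0.239 and 1.1 (ratio 4.6 [3.94 to 5.39]). Tgfb1 and the activin subunit Inhbb were at 7.19 [5.21 to 10.1] and 7.12 [4.33 to 12.4]. In insulin and mTOR signalling 18 of 52 were higher and 0 lower (5 and 0 relative to the median), with Irs2 at 1.84 [1.5 to 2.28]. Of 17 clock genes 7 were higher and 0 lower (3 and 0 relative to the median), with Cry2, a repressor of the clock, at 1.16 [0.961 to 1.4]. MAPK and PKC family kinases and phosphatases had 66 of 142 higher and 1 lower (25 and 2 relative to the median), the lower one being Prkcb at 0.519 [0.449 to 0.599].

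Cell surface and matrix genes were mostly higher. Of 80 adhesion and matrix genes 58 were at least 1.5-fold higher and 3 lower, with 33 and 3 relative to the median gene and 24 and 5 relative to genes of similar level. Cldn4, a tight junction claudin, had 1.38 and 5.96 UMIs per control and knockout cell (ratio 4.33 [4.05 to 4.62]). Pappa2, a secreted protease of growth factor binding proteins that is not in this list, had 0.0796 and 1.01 (ratio 12.7 [9.88 to 16.6]). Mmp13, a collagenase, went from 0.145 to 0.00613 (ratio 0.0424 [0.0135 to 0.102]). All 11 listed collagens and matrix proteoglycans were higher, of which Col27a1 and Col18a1 had 0.384 and 0.881 and 0.0615 and 0.331 and the other 9 less than 0.05 UMIs per cell. Krt17 was lower (0.226 and 0.0196) while 9 other keratin genes had ratios above 1. In the cytoskeleton 46 of 112 were higher and 3 lower (21 and 4 relative to the median), with Tubb2a at 0.644 [0.584 to 0.708] and Myl6 at 0.719 [0.697 to 0.742]. In the primary cilium 19 of 40 were higher and 1 lower (4 and 1 relative to the median) (Ift20 at 0.652 [0.615 to 0.691]). Solute carriers had 59 of 121 higher and 3 lower (23 and 6 relative to the median), the lower ones being Slc2a1, Slc2a2 and Slc16a3, all carriers of glucose or lactate. Cell cycle genes had 17 of 46 higher and 0 lower (3 and 0 relative to the median), with Ccnd1 at 2.66 [2.26 to 3.12].

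Markers of other cell types were also higher in these beta cells, and their part in the results above was not tested. Of 10 listed alpha-cell markers (of 19) 8 were at least 1.5-fold higher (6 relative to the median), and their sum went from 80.9 to 184 UMIs per cell. Delta-cell markers had 7 of 8 higher, 4 relative to the median (40.1 to 65.7), and PP and epsilon markers 4 of 6, 3 relative to the median (55.5 to 168). Gcg, the glucagon gene, had 43.6 and 100.4 and Sst, the somatostatin gene, 36.7 and 59.1. Duct markers had 10 of 13 higher, 6 relative to the median (44.9 to 81.5), with Spp1, a secreted matrix protein, at 32.6 and 59.8, most of that sum. These lists share genes, so their sums are not separate. Spp1 and Tspan8 count among the PP and epsilon markers and the duct markers, and Pyy among the alpha markers and the PP and epsilon markers. Acinar, mesenchymal, endothelial and Schwann or neuronal markers summed to less than 1 UMI per cell in both groups. Reg3b, Spink1, Col1a1, Dcn and Ptger3 had no UMI over all control cells, and Reg3b was at least 31.5-fold higher, taking 3 UMIs over those cells as the floor. Among 9 immune markers 5 were higher and 3 lower (4 and 3 relative to the median), with Cd14 at 0.312 and 1.48 and Cd68, of macrophages, at 0.409 and 0.0577. Globin genes of red cells had the highest ratios of the table, with Hba-a1 at 0.0229 and 12.7 and Hbb-bs at 0.0386 and 7.999 UMIs per control and knockout cell.

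**Figure D5:**
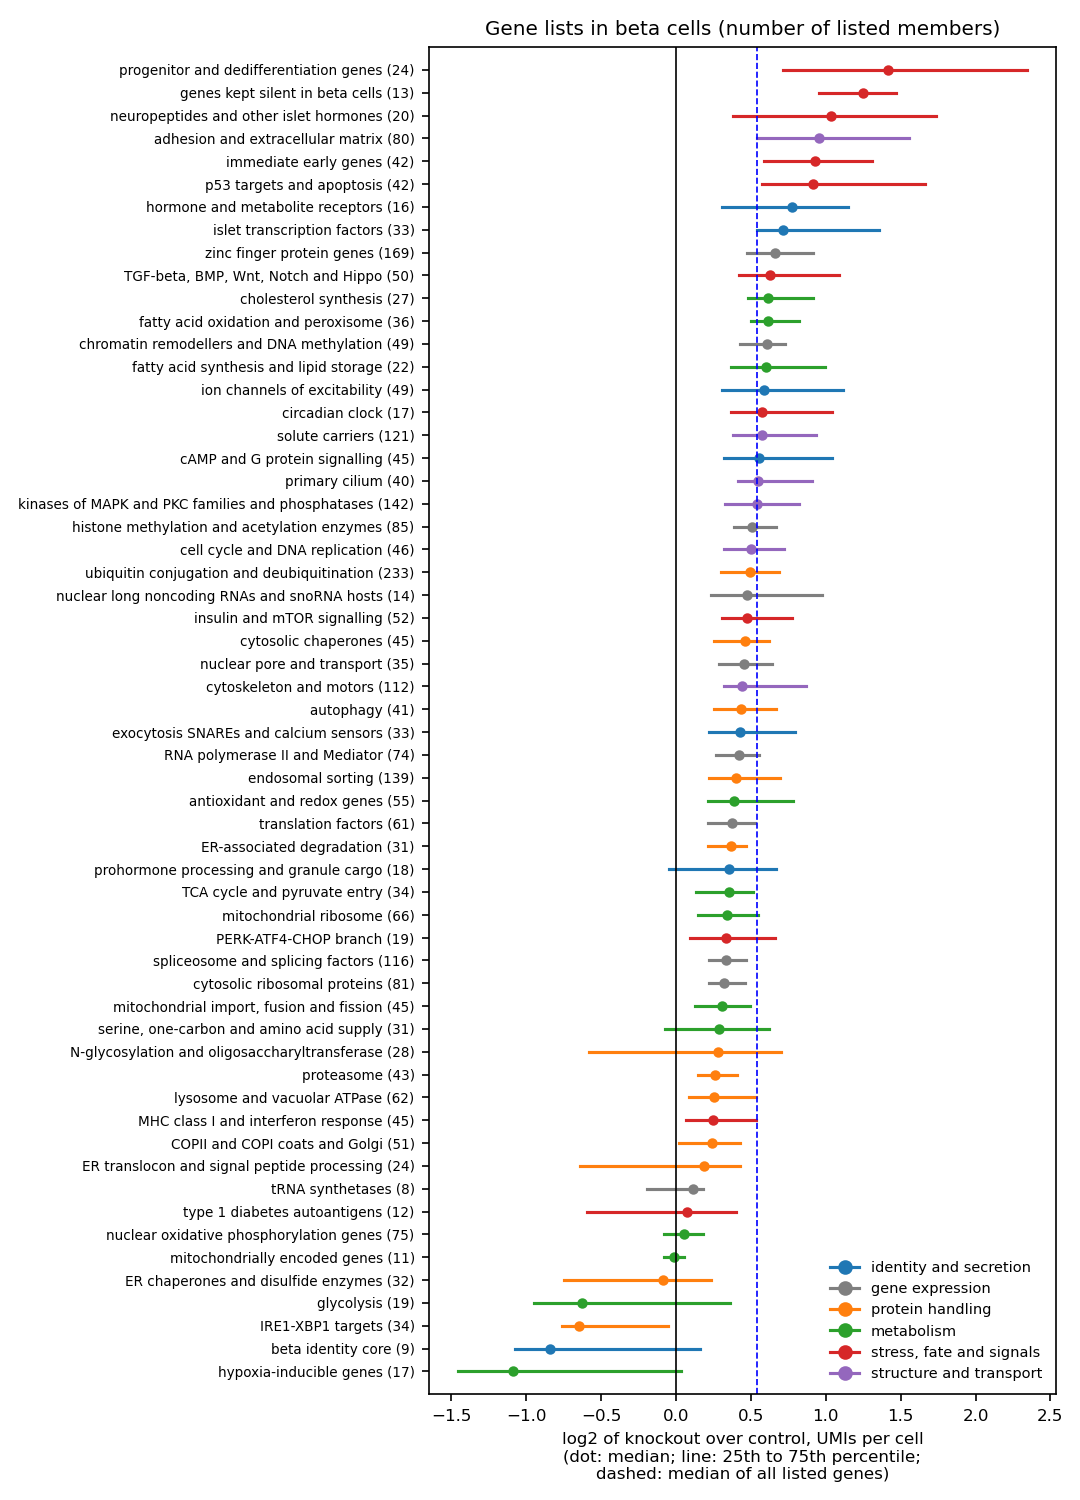
Median log2 ratio of knockout over control (dot) with its 25th and 75th percentiles (line) for the functional gene lists, coloured by function, with the number of listed members after each name. The solid line marks 0 and the dashed line the median of all listed genes (0.54); hypoxia, beta identity, IRE1-XBP1 and glycolysis lists are at the bottom and the progenitor list is at the top.

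Across all 68 lists, the 4 lists with medians below 0 under each of the 6 scalings tried were IRE1-XBP1 targets, the beta identity core, glycolysis and hypoxia-inducible genes. The values were taken as UMIs per cell, over the listed total, over that total less Ins1, Ins2 and Iapp, relative to the median gene, relative to abundant genes and relative to genes of similar level. For 24 lists the median was above 0 under each of them, and for 40 its sign depended on the scaling. Without the scale of similar level these counts were 30 and 34.

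By size in UMIs per cell, the 20 genes with the largest downward differences held the 3 hormone genes, 7 genes of the ER route (Sec61g, Ssr4, Sec61b, Dad1, Krtcap2, Fkbp2 and Manf) and 4 of respiration (Uqcrq, Atp5g1, mt-Nd1 and mt-Atp6). The 20 largest upward differences included 6 ribosomal protein genes and 5 genes of the list of neuropeptides and islet hormones (Gcg, Ppy, Pyy, Sst and the secreted glycoprotein gene Spp1).

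By chromosome, the median relative to the median gene was at most 0.08 on the log2 scale for autosomes and X (chromosome 13), and it was -0.56 for the mitochondrial genome. The 166 lincRNA genes had a median log2 ratio of 1.13 and the 7874 protein-coding genes 0.53. Within a mean of 0.1 to 1 UMIs per cell, 103 lincRNA and antisense genes had 0.65 and 5007 protein-coding genes 0.52. Among genes of 0.3 to 1 UMIs per cell, those spanning under 5000 bases had a median of 0.43 and those over 150000 bases 0.50.

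There were 64 genes in the tables of all 3 cell types, which share the 1 control mouse, so the values stand side by side and are not independent. The glycolytic and hypoxia-inducible genes were lower in each. Ldha had 0.49 and 0.0883 UMIs per control and knockout beta cell, 0.528 in control alpha cells against 0.109 and 0.0339 in the knockout mice, and 2.05 in control delta cells against 0.601 and 0.385. In the order beta, alpha and delta (the latter pair as means of the knockout mice), the ratios of Bnip3 were 0.359, 0.328 and 0.375. For Mif they were 0.446, 0.422 and 0.574, and for Eno1 0.647, 0.421 and 0.435. The ER genes Dad1, Ssr2, Manf and Spcs2 were at 0.585, 0.591, 0.64 and 0.646 in beta cells, and from 0.619 to 0.663 in alpha and 0.616 to 0.647 in delta cells. Iapp was at 0.525, 0.494 and 0.41.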

How the data were processed

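Per the labels, islet cells of 2 knockout mice and 1 control mouse were profiled in 10X Genomics droplets. The submitters' processing notes name Cell Ranger 3.0.0 and mm10, and the filtering of cells, doublets and free RNA, the assignment of cell types and the choice of listed genes are not stated. The authors deposited a table per cell type with a signal value per gene, the mean UMIs per cell, not scaled for depth. The unit was worked out from the values: times 829 (control) or 815 (knockout), 99.99% and 100% were whole within 0.001. Those totals are 26156682 and 20208459 listed UMIs. The deposited p-values, q-values and folds were not used. Cell barcodes were not analysed here.

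Ratios used no pseudocount. A group without UMIs (95 genes in control, 8 in knockout) was set to 3 UMIs over its cells, so those ratios are bounds, and medians include them as such. Exact Clopper-Pearson intervals (95%) of the split of UMIs cover counting error only, and the script was checked on simulated counts. Calls are a fold of 1.5 and no test. The 13 gene names turned into dates were restored, and 8190 identifiers were found in GENCODE M21. Python 3.11.15, pandas 2.3.3, NumPy 2.4.6, SciPy 1.17.1 and Matplotlib 3.10.9 were used.

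The genes, the 68 lists and the 31 complexes were chosen with earlier results of these data known. The rule named markers, Ern1 and Xbp1, the 20 largest differences each way, the 15 highest and 15 lowest ratios at 1 UMI per cell or more, the 3 highest and 3 lowest members of each list at 0.1 UMIs per cell or more with its most abundant member, all members of lists of up to 8, and genes in all 3 tables. Genes of complexes, of pathway steps and of printed promoters were otherwise chosen after their values were seen. A few genes that this rule names are not reported here, in the text or by name in a figure.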

Additional observations from a re-analysis of the deposited data

Results flagged for a closer look

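Genes were singled out where the beta-cell interval excluded 1 and beta cells lay on the opposite side of the control from both knockout mice in alpha or delta cells. The difference was not tested, all cell types share the 1 control mouse, and in beta cells the knockout mice are pooled. Values outside beta cells are ratios of the mean of the knockout mice over the control.

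Of the genes of the mitochondrial genome, 5 were lower in beta cells, with intervals wholly below 1, and higher in both knockout mice in delta cells, and 3 of these also in alpha cells. mt-Nd1 was at 0.848 in beta and 1.61 in delta cells, and mt-Nd2 at 0.901 in beta cells, 1.19 in alpha cells and 1.51 in delta cells. mt-Nd4 was at 0.932 in beta and 1.54 in delta cells. mt-Atp6 was at 0.964, 1.14 and 1.42, and mt-Co3 at 0.975, 1.14 and 1.53, in the order beta, alpha and delta. Relative to the median beta-cell gene all 5 were lower.

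The other genes singled out were higher in beta cells and lower in alpha or delta cells, Hist1h4i only slightly. Rbp4, which carries retinol, was at 1.86 in beta cells, 0.552 in alpha cells and 0.56 in delta cells, and Epcam, an epithelial adhesion gene, at 1.23, 0.721 and 0.566. Ctsz was at 2.39 in beta and 0.65 in alpha cells, and the histone gene Hist1h4i at 1.98 and 0.948, while in delta cells both were higher, at 1.44 and 2.36. In alpha cells Hist1h4i had 0.338 UMIs per control cell (142 cells) against 0.336 and 0.305 in the knockout mice (304 and 177 cells). Its alpha-cell level was thus near that of the control, and these values rest on few UMIs.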

How the results depend on the processing

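As UMIs per cell, 3741 genes were at least 1.5-fold higher and 202 lower, which became 1626 and 99 at a fold of 2, and 6816 and 112 after scaling to the listed total. Relative to the median gene, 1314 genes were higher. That count was 705 at a fold of 2, 565 among genes of at least 0.1 UMIs per cell, 2104 after scaling to the total without Ins1, Ins2 and Iapp, 2244 after centring on abundant genes and 757 relative to genes of similar level. The 343 lower genes kept within 1.5-fold of that count under each of these. Relative to genes of similar level, an alternative added after seeing the data, 6 lists whose medians were above 0 under each other scaling turned negative: receptors (-0.11), primary cilium (-0.095), silent genes (-0.052), zinc finger genes (-0.049), clock genes (-0.043) and solute carriers (-0.039). So did Cadps2 (-0.21), Cryab (-0.067), Dbp (-0.023), Dcn (-0.65), Ezh2 (-0.079), Ftx (-0.31), Gprc5c (-0.064), Hhex (-0.11), Manba (-0.10), Mtx3 (-0.46) and Nup43 (-0.18) on the log2 scale.

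No paired analysis was possible because the control was 1 mouse and the knockout mice share 1 column, and no mouse was left out for the same reason. Genes outside the table were not analysed here, and low genes rest on few UMIs.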
